A study of Mus musculus with 6 samples.

Results

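The genes described here are 10 genes of fatty acid synthesis in mouse skin, Fasn, Acaca, Acacb, Acly, Scd1, Scd2, Srebf1, Mlxipl, Elovl6 and Thrsp. They were chosen by name, as enzymes and regulators of the pathway, but with earlier results of these data known. All 10 were found among the 23951 gene symbols of the expression table. RNA was sequenced from whole lesional skin of 3 JunBΔep mice, genotype "JunB dep" in the labels, and from skin of 3 control mice, genotype "JunB +/+". All mice were littermates on the strain C57Bl/6, aged 6 to 7 months. In JunBΔep mice the transcription factor gene Junb is deleted by a Cre driven by the keratin 5 promoter, which acts in basal keratinocytes and related epithelial cells. The other cells of the skin keep the gene. The libraries are named here by the replicate numbers 0, 1 and 2 in the labels.

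Fatty acids are built in the cytosol from citrate that leaves the mitochondria. ATP citrate lyase (Acly) splits the citrate to acetyl-CoA, acetyl-CoA carboxylase (Acaca) makes malonyl-CoA from it, and fatty acid synthase (Fasn) joins these units into palmitate, which Elovl6 lengthens and the stearoyl-CoA desaturases (Scd1, Scd2) make monounsaturated. The sister carboxylase Acacb sits at the mitochondrial surface, where its malonyl-CoA restrains the entry of fatty acids into oxidation. Srebf1 encodes SREBP1 and Mlxipl encodes ChREBP, the transcription factors that respond to insulin and to carbohydrate, and Thrsp (Spot 14) is a small protein that goes along with lipogenesis in liver, fat and mammary gland. In skin the pathway runs in fat cells, in sebaceous glands and in keratinocytes, which need fatty acids for the permeability barrier.

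The promoters of Fasn, Thrsp and Mlxipl are shown because these genes differed most between libraries or hold the searched sterol response element. The sequences are from RefSeq on the build GRCm38.p6 and run 5′ to 3′ along the gene, as the 250 bases before the annotated start. In Fasn (chr11:120824548-120824797, minus strand) and Thrsp (chr7:97417551-97417800, minus strand) the capitals mark the CCAAT box on either strand. In Mlxipl (chr5:135106641-135106890, plus strand, the window of the downstream start) they mark the sterol response element TCACNCCAC.
Fasn: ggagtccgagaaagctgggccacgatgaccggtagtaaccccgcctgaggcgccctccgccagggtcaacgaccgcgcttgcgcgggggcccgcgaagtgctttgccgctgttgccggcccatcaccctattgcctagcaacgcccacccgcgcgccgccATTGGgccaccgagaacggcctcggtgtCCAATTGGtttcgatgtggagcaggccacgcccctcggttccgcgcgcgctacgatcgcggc
Thrsp: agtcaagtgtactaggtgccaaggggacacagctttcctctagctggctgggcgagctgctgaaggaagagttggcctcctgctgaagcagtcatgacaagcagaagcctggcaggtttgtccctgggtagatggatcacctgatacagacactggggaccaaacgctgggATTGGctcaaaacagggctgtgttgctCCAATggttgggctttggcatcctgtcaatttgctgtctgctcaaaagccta
Mlxipl: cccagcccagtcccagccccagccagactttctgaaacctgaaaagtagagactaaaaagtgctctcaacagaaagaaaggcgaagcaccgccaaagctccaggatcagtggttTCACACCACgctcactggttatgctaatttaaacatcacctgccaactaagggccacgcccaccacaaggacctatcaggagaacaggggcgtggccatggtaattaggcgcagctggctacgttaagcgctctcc

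The table of promoters held 11 windows for 8 of the 10 genes. Each lies before an annotated start, which can be an inner start of the gene, and which starts skin uses was not tested. Whether the single windows of Acaca and Acacb lie before the first exon was not tested either. Scd1 and Scd2 were not matched. CCAAT was found on either strand in 6 of the 11 windows, of Acacb, Fasn, Mlxipl, Srebf1 and Thrsp, against 33.9% of the 32841 windows of all genes. In Fasn it lay at -90, -62 and -59 from the start, the last pair overlapping, and in Thrsp at -79 and -52. The sterol response element was in 1 window, at -136 in Mlxipl, against 1.05% of all windows. The E-box CACGTG was in 1 window, upstream of the other Mlxipl start, against 6.02%. GGGCGG, the GC box, was in 4 windows of Acly, Mlxipl and Srebf1, against 32.7%. The AP-1 letters TGANTCA, the kind of site that JunB binds with its partners, were in 0 of the 11 windows, against 6.75% of all windows. A match of letters is a description and does not show a bound site.

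In the mm9 annotation the 10 genes lie on 5 chromosomes. Fasn (chr11:120667254-120685492), Acly (chr11:100337667-100389314), Acaca (chr11:83943174-84215153) and Srebf1 (chr11:60012591-60036083) share chromosome 11 at separate places. Acacb (chr5:114596544-114700770) and Mlxipl (chr5:135582761-135614254) lie on chromosome 5. Scd2 (chr19:44368166-44381354) and Scd1 (chr19:44468941-44482199) are neighbours in a cluster of similar genes, so reads that fit both could be split between them. Elovl6 is at chr3:129235304-129341413 and Thrsp at chr7:104561448-104566240.

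Values are FPKM, which scale the fragments of a gene by its transcript length and by the size of the library. Since read numbers are not known, counting error cannot be stated. The sums over all genes were 481078 to 630363 FPKM per library. Several libraries stood apart. The library labelled JunBΔep replicate 0 had the lowest level of all 16 fat cell markers but the highest Junb level, 129.6 FPKM, while the controls lay between 56.9 and 72.4 FPKM and the other JunBΔep libraries at 42.8 and 28.0 FPKM. Junb did not pass the test (log2 fold change -0.21, SE 0.55, limma adjusted p = 0.901; -0.84 without that library). JunBΔep replicate 2 had the highest level of 13 of the 16 fat cell markers. Genes of the growing hair follicle, a list of 12, summed to 4083 FPKM in control replicate 2 and 6625 FPKM in JunBΔep replicate 1, and to 4.72 to 340 FPKM in the others. Control replicate 0 held liver transcripts, with 2447 FPKM over 14 liver genes against 2.83 to 53.4 FPKM in the others. The skeletal muscle markers were lower in all 3 JunBΔep libraries than in every control, 15 of 15 without overlap. The labels give no sex, and Xist and Ddx3y marked control replicate 1 and JunBΔep replicates 1 and 2 as female libraries and the rest as male. The fold changes of the 10 genes are therefore also given with 1 library left out. In whole skin, fewer cells of a type and less RNA per cell cannot be told apart.

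The comparison asks whether epidermal loss of JunB goes with a changed level of lipogenic transcripts in lesional skin. All 10 genes passed the filter of a mean of 0.1 FPKM, as did 17021 genes of the table. At an adjusted p below 0.05, limma called 0 of the 10, and 0 of 10 had an unadjusted p below 0.05, as 7.56% of all genes tested did. Over the whole table it called 235 genes, or 1.38%, all of them lower in JunBΔep skin. This count was 0 without any 1 of the controls or without JunBΔep replicate 1 (793 to 1090 genes at an unadjusted p below 0.05), 135 without JunBΔep replicate 0 and 254 without JunBΔep replicate 2. The lowest adjusted p among the 10 was 0.719, for Acaca. The JunBΔep and control libraries did not overlap for 1 of the 10, Acly, against 14.8% of all genes tested. The median log2 fold change of the 10 was 0.26, with 6 above 0, beside a median of 0.03 over all genes tested. It was 0.06 without control replicate 1 or JunBΔep replicate 2, and 0.88 without JunBΔep replicate 0. The JunBΔep mice differed widely among themselves. The range over the 3 JunBΔep libraries had a median of 3.28 on the log2 scale, against 0.70 over the 3 controls. For all genes tested the same medians were 0.73 and 0.41. The JunBΔep range was the larger in 10 of the 10 genes, against 74.3% of all genes.

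**Figure D1:**
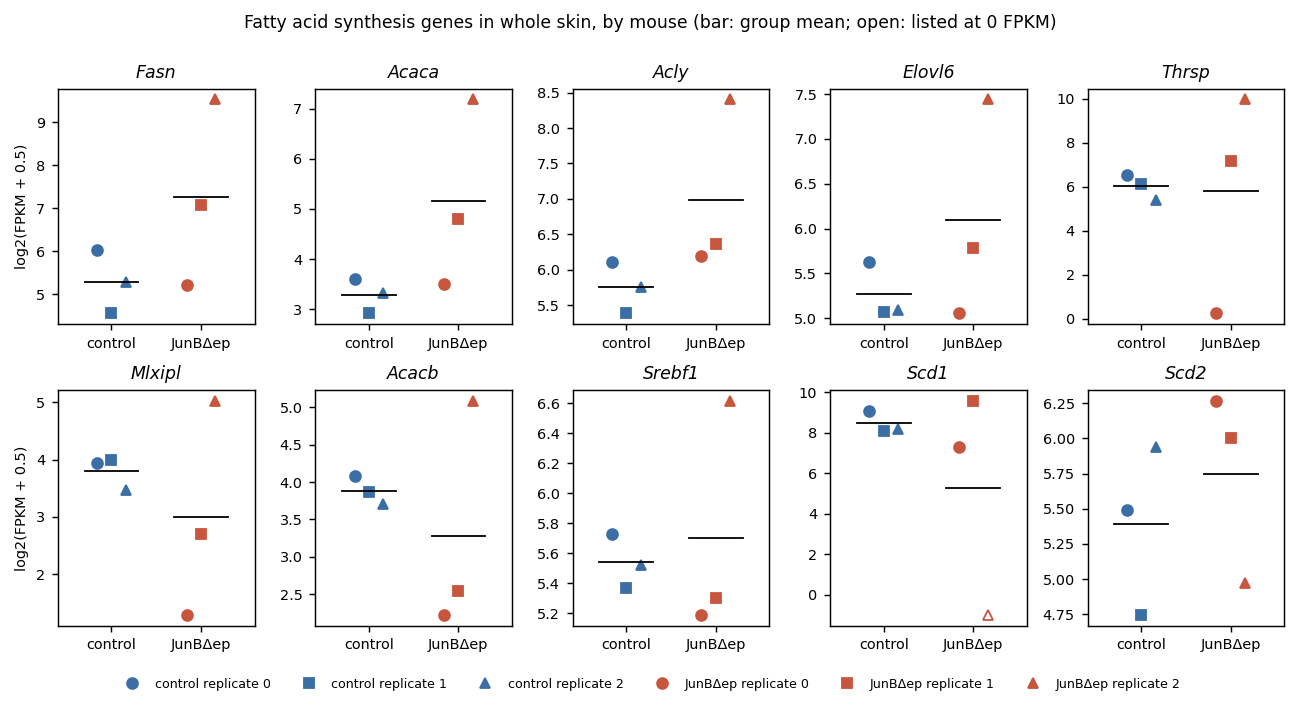
Level of each fatty acid synthesis gene in each library, as log2(FPKM + 0.5) on the vertical axis, with controls on the left and JunBΔep mice on the right of each panel, a bar at the group mean and an open symbol for the value listed at 0. The JunBΔep points are spread more widely than the control points in every panel, by little for Scd2 (a range of 1.29 against 1.19), with JunBΔep replicate 2 at the top for 8 of the 10 genes.

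Of the cytosolic chain, Fasn, Acaca, Acly and Elovl6 were highest in JunBΔep replicate 2, intermediate in JunBΔep replicate 1 and near the control level in JunBΔep replicate 0. The desaturases Scd1 and Scd2 did not take this order. Fasn, which makes palmitate, had levels of 65.4, 23.1 and 38.5 FPKM in the controls (here and in what follows in the order replicate 0, 1, 2) against 36.7, 133 and 738 FPKM in JunBΔep skin. JunBΔep replicate 0 lay within the controls, and JunBΔep replicate 2 was 5.54 times the next highest library and 17.4 times the control mean. Its log2 fold change was 1.97 (SE 1.08, adjusted p = 0.722 by limma, n = 3 and 3). Acaca, the carboxylase that supplies malonyl-CoA to Fasn, was at 11.6, 7.06 and 9.44 FPKM in the controls and at 10.8, 27.3 and 145 FPKM in JunBΔep skin. Here too JunBΔep replicate 0 lay among the controls and the other 2 above them, with JunBΔep replicate 2 at 15.5 times the control mean. The log2 fold change of Acaca was 1.88 (SE 0.90, adjusted p = 0.719 by limma).

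Acly, which makes cytosolic acetyl-CoA, was at 68.9, 41.4 and 53.5 FPKM in the controls and at 72.9, 81.9 and 338 FPKM in JunBΔep skin. Every JunBΔep library was above every control, by a small margin for JunBΔep replicate 0. The exact permutation test gave p = 0.1, the smallest that 3 against 3 libraries allow, and the log2 fold change was 1.24 (SE 0.61, limma adjusted p = 0.720). Elovl6, the elongase for palmitate, was at 49.0, 33.1 and 33.7 FPKM in the controls and at 32.8, 54.6 and 173 FPKM in JunBΔep skin. JunBΔep replicate 0 was just below the lowest control and the other 2 were above the highest. The log2 fold change of Elovl6 was 0.83 (SE 0.60, limma adjusted p = 0.722).

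Acacb, the carboxylase of the mitochondrial surface, took another course. It was at 16.4, 14.1 and 12.6 FPKM in the controls and at 4.17, 5.32 and 33.4 FPKM in JunBΔep skin. JunBΔep replicates 0 and 1 were below every control and replicate 2 above every control, at 2.33 times their mean. The log2 fold change was -0.60 (SE 0.75, limma adjusted p = 0.790). Without JunBΔep replicate 2 it was -1.50, with an adjusted p of 0.0549 by limma, the lowest of any of the 10 genes under any alternative. Without JunBΔep replicate 0 it was -0.07 and without replicate 1 it was -0.23. The level of Acacb relative to Acaca, a ratio chosen after the values were seen, was 1.41, 2.00 and 1.33 in the controls and 0.388, 0.195 and 0.230 in JunBΔep skin, as FPKM over FPKM. The controls thus held more Acacb than Acaca transcript per length, and each JunBΔep library held less. On the log2(FPKM + 0.5) scale the ratio was 0.61 ± 0.30 in controls and -1.88 ± 0.53 in JunBΔep skin (SD, n = 3 each), a difference of -2.48 (-2.79 to -2.30 with 1 library left out). No test is given, since the ratio was chosen for this separation. How many other gene pairs separate in this way was not counted. The 15 skeletal muscle markers were also lower in every JunBΔep library than in every control. The part of muscle in this ratio was not tested.

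Scd1, the main desaturase of sebaceous glands and fat cells, was the most abundant of the 10 in every control. It was at 536, 273 and 291 FPKM there, at 153 and 752 FPKM in the first 2 JunBΔep libraries, and was listed at 0 in JunBΔep replicate 2, the library with the highest Fasn and Acaca. The table holds 7 zeros for genes with at least 3 FPKM in the other 5 libraries, of which 6 are in JunBΔep replicate 0 and include the basal keratin Krt14, so a value of 0 can be a failed estimate. With that 0 kept, the log2 fold change of Scd1 was -3.18 (SE 2.61, limma adjusted p = 0.722), and with it as missing it was -0.04 (adjusted p = 0.987 by limma). The remaining JunBΔep values lay below and above all 3 controls. Scd2, the desaturase of many tissues outside the liver, was at 44.4, 26.3 and 60.8 FPKM in the controls and at 76.4, 63.7 and 30.9 FPKM in JunBΔep skin. JunBΔep replicate 2, the highest library for 8 of the other 9 genes, had the lowest Scd2 of its group, within the controls. The log2 fold change of Scd2 was 0.36 (SE 0.44, limma adjusted p = 0.789). With 1 library left out it lay between 0.03 and 0.74, the lowest without control replicate 1 and the highest without JunBΔep replicate 2.

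The regulators were lower in JunBΔep replicates 0 and 1 than in every control or spread widely. Srebf1 was at 52.4, 40.9 and 45.5 FPKM in the controls and at 36.0, 39.0 and 97.6 FPKM in JunBΔep skin (log2 fold change 0.16, SE 0.40, limma adjusted p = 0.895). Its JunBΔep replicate 2 value was 2.11 times the control mean, while Fasn in that library stood at 17.4 times. Mlxipl was at 14.9, 15.4 and 10.6 FPKM in the controls and at 1.94, 6.00 and 32.0 FPKM in JunBΔep skin, again with 2 libraries below every control and 1 above. The log2 fold change of Mlxipl was -0.80 (SE 0.90, limma adjusted p = 0.769). Thrsp had the widest spread of the measured non-zero values, at 93.4, 68.5 and 42.2 FPKM in the controls and 0.689, 146 and 1013 FPKM in JunBΔep skin. JunBΔep replicate 0 held 0.0101 times the control mean of Thrsp and JunBΔep replicate 2 held 14.9 times. The log2 fold change of Thrsp was -0.22 (SE 2.36, limma adjusted p = 0.978), a mean of opposite differences.

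Sorted by library, 5 of the 10 genes (Fasn, Acaca, Acly, Elovl6 and Thrsp) were above every control in both JunBΔep replicates 1 and 2, as were 11.1% of all genes tested. Another 3 (Acacb, Srebf1 and Mlxipl) were below every control in both JunBΔep replicates 0 and 1, as were 20.5% of all genes. JunBΔep replicate 2 held the highest value of 8 of the 10 genes, against 14.0% of all genes. These patterns were chosen after the values were seen. With each of the 6 libraries left out in turn, 8 of the 10 genes had their lowest log2 fold change without JunBΔep replicate 2 and their highest without JunBΔep replicate 0. These ranges were 0.84 to 3.00 for Fasn, 0.87 to 2.71 for Acaca, 0.53 to 1.63 for Acly and 0.16 to 1.35 for Elovl6, which stayed above 0. Acacb stayed below 0, from -1.50 to -0.07. Srebf1 ran from -0.29 to 0.42, Mlxipl from -1.81 to 0.06 and Thrsp from -2.30 to 2.56, so their direction rested on which library was left out. Scd1 ran from -5.32 without JunBΔep replicate 1 to -0.04 without JunBΔep replicate 2, the library with its 0. In all 6 fits limma called 0 of the 10 genes. At an unadjusted p below 0.05 there were 5 of the 10 without JunBΔep replicate 0 (8.07% of all genes), 2 without JunBΔep replicate 2 (18.4%) and 0 in the other 4 fits.

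**Figure D2:**
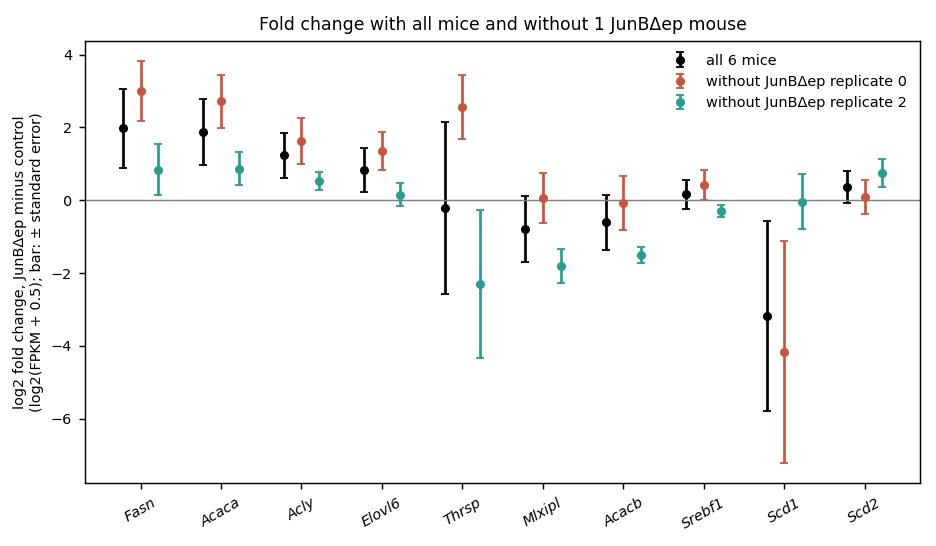
Log2 fold change of each gene, JunBΔep minus control on the log2(FPKM + 0.5) scale, with its standard error as a bar, for all libraries and without JunBΔep replicate 0 or replicate 2. Fasn moves from 1.97 to 3.00 and 0.84, and Thrsp from -0.22 to 2.56 and -2.30.

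The library titles form a pair of number series, one holding control replicates 0 and 1 with JunBΔep replicate 0, the other control replicate 2 with JunBΔep replicates 1 and 2. The labels do not say what the series are. Within the first series the JunBΔep minus control difference was -0.09 for Fasn, 0.24 for Acaca and 0.44 for Acly on the log2(FPKM + 0.5) scale, and within the other 3.01, 2.68 and 1.63. For Thrsp it was -6.08 and 3.17, and for Mlxipl -2.68 and 0.39. The difference between the series was not tested, since JunBΔep replicate 0 is the lone mutant of the first. That library is also the lone male library of its group.

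Fat cell markers varied between the same libraries. The summed level of the 16 fat cell markers lay between 3311 and 8120 FPKM in the controls but was 138, 4119 and 19260 FPKM in the JunBΔep libraries. None of the 16 was at 0 in a library, and limma called 0 of the 16, with 0 at an unadjusted p below 0.05. Adipoq, the fat cell hormone adiponectin, was at 310, 455 and 175 FPKM in the controls and at 1.61, 213 and 936 FPKM in JunBΔep skin. JunBΔep replicate 0 was almost free of the marker and JunBΔep replicate 2 was at the top, and Fasn, Acaca, Acacb, Acly, Srebf1, Mlxipl, Elovl6 and Thrsp took the same order within the JunBΔep group. Among the markers of mammary epithelium, the milk protein gene Csn3 and the milk fat gene Btn1a1 were also highest in JunBΔep replicate 2, where Csn3 was at 11.5 FPKM and Btn1a1 at 9.45 FPKM, but Csn2 at 0.253 and Wap at 0.0425 FPKM. Of the 8 mammary markers 4 passed the filter, and they summed to 0.126 to 0.271 FPKM in the controls against 8.95, 0.895 and 21.9 FPKM in JunBΔep skin, of which Glycam1 made 8.83 FPKM in JunBΔep replicate 0 and was at 0 in JunBΔep replicates 1 and 2. The 12 sebaceous gland markers summed to between 487 and 885 FPKM in the controls and reached 973, 713 and 578 FPKM in JunBΔep skin. Krt79 and Apoc1 made most of each sum, so the sums do not describe the list as a whole. The median log2 fold change of the 12 was 0.08, with 7 above 0. The part of fat, mammary and sebaceous cells in the group differences was not tested.

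Relative to fat cell markers, 4 of the 10 genes did not overlap between the groups when all libraries were kept. Which genes these were changed with the reference and with the libraries kept. The 16 markers did not all move alike. While 13 were highest in JunBΔep replicate 2, Lep was lower in every JunBΔep library than in every control. Whether each marker follows fat cells alone was not tested. For each gene, the mean log2(FPKM + 0.5) of the 16 markers was subtracted from its own value in the same library. Fasn was then at -1.18, -3.17 and -1.31 in the controls and at 3.22, 0.36 and 0.90 in JunBΔep skin, a difference of 3.38 (exact permutation p = 0.1, the smallest possible). No control reached any JunBΔep library. Acaca differed by 3.29, Acly by 2.64 and Elovl6 by 2.24, with every JunBΔep library above every control for each. Without JunBΔep replicate 0 the differences were 2.52 for Fasn, 2.23 for Acaca, 1.15 for Acly and 0.86 for Elovl6, still with no overlap, but with exact permutation p = 0.2 for Acly and Elovl6. These 4 of the 10 genes are to be read against 0.506% of 17005 genes that were so placed. The other 6 overlapped. Of these, Thrsp no longer overlapped without JunBΔep replicate 0, nor Scd1 without JunBΔep replicate 2. Groups separate more easily with fewer libraries. The share of all genes so placed was not counted with 1 library left out or with another reference. Thrsp was at -0.66, -1.63 and -1.18 in the controls and at -1.75, 0.49 and 1.35 in JunBΔep skin, and Mlxipl at -3.28, -3.74 and -3.13 against -0.71, -4.01 and -3.61. With Adipoq alone as the reference, Elovl6 overlapped between groups and Thrsp did not. JunBΔep replicate 0, with a marker mean of 2.00 against 6.60 to 7.74 in the controls, stood highest for Fasn, Acaca, Acly and Elovl6. Before the subtraction it lay within the controls for Fasn and Acaca and just below them for Elovl6. For these genes its place above the controls came from the subtraction. The p-values with that library kept cannot tell a change of these genes from a fall of the markers. The margin of the other JunBΔep libraries was smaller: Acly was at -0.34 and -0.23 there and reached -0.85 in the controls, and Elovl6 was at -0.92 and -1.19 and reached -1.50.

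**Figure D3:**
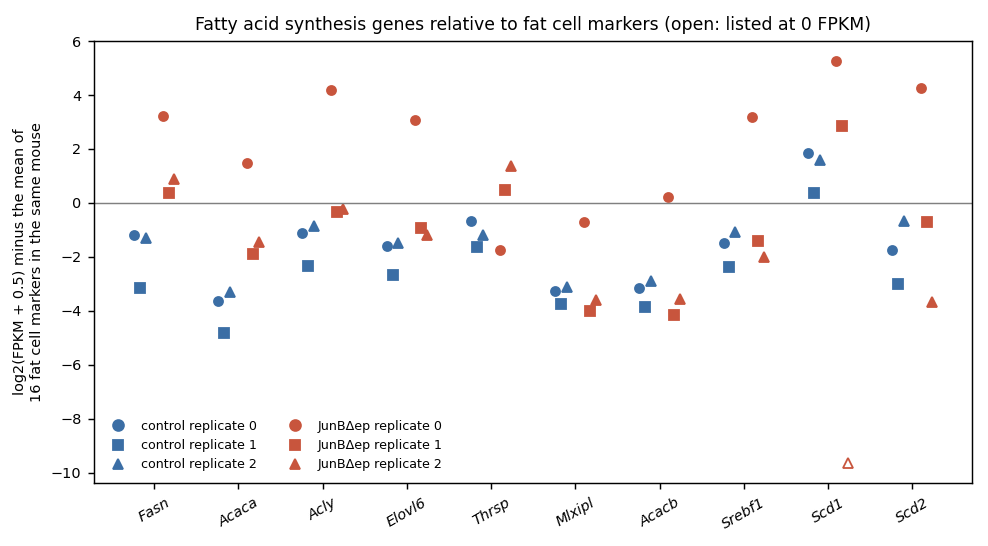
Each gene's log2(FPKM + 0.5) minus the mean of the 16 fat cell markers in the same library, for controls and JunBΔep mice, with the value listed at 0 as an open symbol. The JunBΔep points of Fasn, Acaca, Acly and Elovl6 lie above all control points, and those of the other 6 genes overlap the controls.

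Genes that feed the pathway showed the JunBΔep replicate 2 pattern in part, with 7 of 15 highest in that library, against 14.0% of all genes tested. Of 15 genes for acetyl-CoA, NADPH and acyl-CoA supply, 0 were called by limma, with 1 in each direction at an unadjusted p below 0.05, and the median log2 fold change was 0.11. Slc25a1, the mitochondrial citrate carrier, was at 68.0, 52.5 and 44.9 FPKM in the controls and at 50.1, 88.0 and 544 FPKM in JunBΔep skin (log2 fold change 1.30, limma adjusted p = 0.722). Acss2, which makes acetyl-CoA from acetate, was at 25.8, 11.3 and 14.7 FPKM against 9.89, 26.1 and 121 FPKM. Both followed Fasn in having JunBΔep replicate 2 far above the rest, as did malic enzyme Me1, chosen after its values were seen, at 470 FPKM there against 58.9 to 90.5 FPKM in the other 5 libraries. Acsl6, a ligase that activates long fatty acids, was lower in all 3 JunBΔep libraries, at 0.716, 0.729 and 1.82 FPKM against 3.14, 3.96 and 3.34 FPKM (log2 fold change -1.39, limma adjusted p = 0.175). G6pdx, which makes NADPH in the pentose phosphate pathway, was higher in all 3, at 69.6, 58.2 and 56.9 FPKM against 32.9, 33.2 and 39.9 FPKM (log2 fold change 0.79, SE 0.16, limma adjusted p = 0.113). Unlike Fasn, G6pdx did not stand out in JunBΔep replicate 2.

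Among 17 other elongases, desaturases and partners, 0 were called, 1 had an unadjusted p below 0.05, and the median log2 fold change was 0.26. Scd3, the desaturase of the sebaceous gland, was at 4.73, 4.64 and 2.59 FPKM in the controls and at 1.51, 0.662 and 1.08 FPKM in JunBΔep skin (log2 fold change -1.50, limma adjusted p = 0.155). All JunBΔep libraries were below the controls for Scd3. Elovl3, an elongase of sebaceous glands, overlapped, at 44.7, 14.3 and 39.1 against 55.6, 47.4 and 40.7 FPKM. Elovl7 was at 36.8 FPKM in JunBΔep replicate 0 and at 6.04 to 9.85 FPKM in the others. The 7 genes of mitochondrial fatty acid synthesis held 6 that were tested, with 0 called, 0 at an unadjusted p below 0.05 and a median of -0.10.

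Of 23 genes that control lipogenesis, limma called 1, lower, and their median was 0.06. This was Prkaa2, a catalytic subunit of the kinase AMPK, which phosphorylates and restrains the acetyl-CoA carboxylases. It was at 6.13, 5.21 and 6.09 FPKM in the controls and at 1.24, 1.01 and 2.00 FPKM in JunBΔep skin, a log2 fold change of -1.75 (SE 0.26, adjusted p = 0.0425). Muscle, whose markers were lower in JunBΔep skin, is a site of high Prkaa2 expression. The limma adjusted p lay between 0.0281 and 0.383 over the alternatives, and the call was lost in 12 of them: without any 1 of the controls, without JunBΔep replicate 0 or 1, in both fits without a pair of libraries, with a number series block (0.110), a sex block (0.0976) or a replicate block (0.217), with no filter and with every library scaled to 1 sum. Mlycd, which breaks down malonyl-CoA, was at 23.1, 32.6 and 22.998 FPKM against 4.57, 11.4 and 20.01 FPKM, with no overlap (log2 fold change -1.30, limma adjusted p = 0.633). Ppara also had no overlap, with controls between 2.35 and 3.10 FPKM and JunBΔep skin between 0.450 and 2.29 FPKM (log2 fold change -0.89, limma adjusted p = 0.716). In the other direction, 2 genes of the list had no overlap, so that 3 of the 23 were lower and 2 higher in every JunBΔep library, beside 1559 and 956 of all 17021 genes tested. Prkab1, a regulatory subunit of AMPK, was at 14.2, 13.3 and 15.2 FPKM in the controls and at 25.8, 18.9 and 19.2 FPKM in JunBΔep skin (log2 fold change 0.55, limma adjusted p = 0.455). Mlx, the partner of ChREBP, was at 19.6, 19.1 and 20.7 FPKM against 38.5, 20.8 and 20.9 FPKM, so that JunBΔep replicates 1 and 2 were just above the controls. The other catalytic subunit, Prkaa1, was at 7.54 to 8.52 FPKM in the controls and 7.91 to 8.85 FPKM in JunBΔep skin, with overlap. These 3 genes, G6pdx and Cpt1a were chosen after their values were seen.

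Of the genes that burn or store the product, limma called 1. Of 15 fatty acid oxidation genes, 14 had a negative log2 fold change, with a median of -0.48, while 9097 of all 17021 genes tested were above 0. The called gene, Cpt1b, the muscle carnitine palmitoyltransferase that malonyl-CoA inhibits, fell from 46.0, 51.8 and 49.2 FPKM in the controls to 4.91, 5.07 and 9.55 FPKM in JunBΔep skin (log2 fold change -2.88, SE 0.27, adjusted p = 0.0179 by limma, between 0.00939 and 0.202 over the alternatives). The call was lost without any 1 of the controls, without JunBΔep replicate 1, without control replicate 0 and JunBΔep replicate 0 together, with the number series as a block (adjusted p = 0.0661 by limma) and with the replicate number as a block (0.145). The gene above 0 was Cpt1a, the sister enzyme of liver and most other tissues, which malonyl-CoA also inhibits. It was at 14.4, 10.5 and 16.1 FPKM in the controls and at 20.2, 24.6 and 17.7 FPKM in JunBΔep skin, with no overlap (log2 fold change 0.60, limma adjusted p = 0.582). The 15 skeletal muscle markers summed to 24593 to 33899 FPKM in the controls and to 2475, 2297 and 5546 FPKM in JunBΔep skin, with limma calling 10 of them lower, and Myh7 was at 0 in JunBΔep replicates 0 and 1. Among the called genes, the largest log2 fold changes were those of the myosin Myh2 (-3.74) and the troponins Tnnc2 (-3.33), Tnnt3 (-3.28) and Tnni2 (-3.27). Of 7 brown fat markers, limma called 1, Cox7a1, a respiratory subunit of muscle and brown fat, lower (log2 fold change -3.08, SE 0.27, adjusted p = 0.0179), and Ucp1, the defining gene of brown fat, was at 0.0643 to 0.112 FPKM in the controls and at 0.163, 0.123 and 1.73 FPKM in JunBΔep skin. Like that of Cpt1b, these 5 calls were lost without any 1 of the controls, without JunBΔep replicate 1 and with either of those blocks. Without JunBΔep replicate 0 the calls of Myh2 and the 3 troponins were lost too (limma adjusted p between 0.0510 and 0.108), as were those of the troponins with no filter (0.0619 to 0.0803) or with a sex block. The part of muscle in the Cpt1b, Prkaa2 and Acacb results was not tested. Of 14 triglyceride assembly genes, 0 were called, 1 had an unadjusted p below 0.05, and 10 had their highest value in JunBΔep replicate 2. Dgat1, which adds the last acyl chain, was at 32.3, 26.8 and 22.04 FPKM in the controls and at 63.1, 31.0 and 97.6 FPKM in JunBΔep skin (log2 fold change 1.09, limma adjusted p = 0.621), with JunBΔep replicate 1 inside the controls.

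Cholesterol synthesis, which shares the SREBP factors with these genes, was highest in another library. The list held 23 such genes, of which Hmgcs1 was listed at 0 FPKM in all 6 libraries and was not tested. Of the 22 genes tested, 0 were called, 0 had an unadjusted p below 0.05, and 1 had its highest value in JunBΔep replicate 2. Their median against the control mean was 0.83, -0.07 and -0.09 on the log2 scale in JunBΔep replicates 0, 1 and 2, where that of the fatty acid synthesis genes was -0.28, 0.61 and 1.70.

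**Figure D4:**
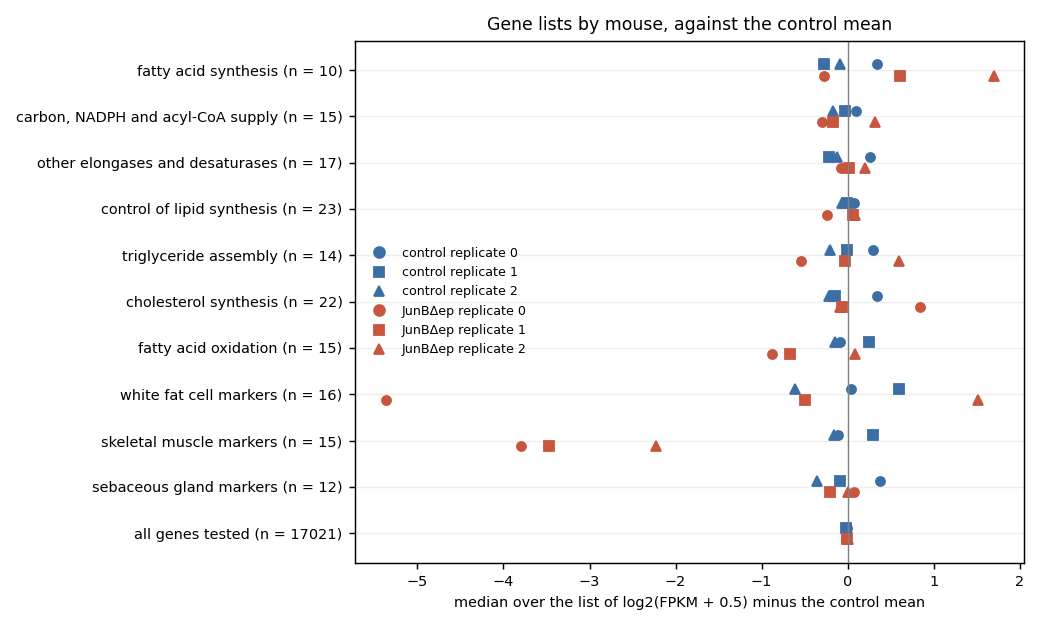
Median over each gene list of log2(FPKM + 0.5) minus the control mean, on the horizontal axis, for each of the 6 libraries. In JunBΔep replicate 2 the fatty acid synthesis genes stand at 1.70 and fat cell markers at 1.51, and in JunBΔep replicate 0 fat cell markers stand at -5.37 and cholesterol synthesis genes at 0.83.

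The genes whose pattern over the 6 libraries was most like the mean pattern of the 10, among the 13732 genes that averaged 1 FPKM or more, were Dqx1, Cish, Tctn1, Tmem179, Slc26a11, Ces1f, Nisch and Gtpbp2. The likeness was Pearson's r, between 0.977 and 0.995, given as a description because the 6 libraries fall into genotype groups. These names rest on the Scd1 value of 0 in JunBΔep replicate 2, which enters the mean pattern. With the mean of the other 9 genes, 0 of the 8 remained among the first 8, which became Pcx, Rad51d, Mtmr14, Acss2, Tmem120b, Papln, Xylt2 and Sik2 (r between 0.974 and 0.996). Pcx, pyruvate carboxylase, which replenishes the oxaloacetate for citrate, was at 43.7, 27.3 and 28.4 FPKM in the controls and at 14.4, 52.8 and 353 FPKM in JunBΔep skin. JunBΔep replicate 2 was far above the rest, as for Fasn and Acss2.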

How the data were processed

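Poly(A) RNA from whole skin of 6 mice was sequenced with a stranded kit. The authors deposited FPKM values per gene and library, and all 6 columns were used. Per the labels, the submitters' processing notes name FastQC, TopHat2 2.0.10, Bowtie 1.0.0, SAMtools 0.1.19 and Cufflinks, and the build mm9. Which of these made the FPKM is not stated. The authors' own test, DESeq2 on read counts, was not used here.

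Values were set to log2(FPKM + 0.5), which understates the change of low genes. Genes averaging 0.1 FPKM or more were tested between 3 JunBΔep and 3 control libraries with limma 3.58.1 (R 4.3.3; intensity trend, no covariate, two-sided), adjusted by Benjamini-Hochberg over all genes tested, threshold 0.05. Single values had an exact two-sided permutation test. The fit was tested on simulated data. Named are the 10 genes, up to 4 called genes of each other list or those with the largest fold change, the 8 most alike genes, and genes said to be chosen after their values were seen. The members and lists were chosen with earlier results of these data known. Alternatives covered pseudocount, filter, scaling, limma settings, blocks, left-out libraries and, chosen after seeing the data, the likeness without Scd1 and the values relative to fat cell markers without JunBΔep replicate 0 or 2. Number series in the titles and sex by Xist served as blocks. Figures used Python 3.11.15, pandas 2.3.3 and matplotlib 3.10.9.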

Additional observations from a re-analysis of the deposited data

How the results depend on the processing

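None of the 10 fatty acid synthesis genes was called by limma under any of the 22 alternatives, 4 of which were chosen after seeing the data; the number with an unadjusted p below 0.05 was 5 without JunBΔep replicate 0 (8.07% of all genes), 2 without JunBΔep replicate 2 (18.4%), 3 without control replicate 0 and JunBΔep replicate 0, here both replicates 0 (5.07%), 4 without JunBΔep replicates 0 and 2 (16.8%), and 0 in the other fits (4.72% to 15.4%). Their median log2 fold change lay between 0.06 and 1.02, the lowest without control replicate 1 or JunBΔep replicate 2, the highest without control replicate 0 and JunBΔep replicate 0, with 0.88 without JunBΔep replicate 0. The main changes of direction or size, as log2 fold changes, were these. Thrsp was at 0.05 without control replicate 0, at 2.56 without JunBΔep replicate 0, at 2.83 without both replicates 0 and at 1.17 without JunBΔep replicates 0 and 2, and it was -0.91 without JunBΔep replicate 1, -1.45 with a number series block and -1.63 with a sex block. Mlxipl was at 0.06 without JunBΔep replicate 0 and 0.13 without both replicates 0, and Acacb at 0.023 and Srebf1 at 0.51 in the latter. Srebf1 was at -0.29 without JunBΔep replicate 2 and -0.24 without JunBΔep replicates 0 and 2, where Scd1 was at 1.11. Srebf1 was at 0.42 and Acacb at -0.07 without JunBΔep replicate 0, and Scd1 at -5.32 without JunBΔep replicate 1. Acss2 was at -0.015 without JunBΔep replicate 2 and 2.09 without both replicates 0. Without JunBΔep replicate 2, Acacb was at -1.50, Mlxipl at -1.81 and Thrsp at -2.30, lower than with all libraries. Junb was at 0.14 with a number series block, 0.25 without JunBΔep replicate 2, 0.050 with a sex block, -0.84 without JunBΔep replicate 0 and -0.88 without both replicates 0. Scd2 was at 0.035 without control replicate 1, 0.63 without control replicate 2, 0.099 without JunBΔep replicate 0 and 0.74 without JunBΔep replicate 2. Relative to the fat cell markers, without JunBΔep replicate 0 or replicate 2 in turn, the difference was -0.56 or 1.33 for Acacb, -4.65 or 2.79 for Scd1, -0.39 or 3.58 for Scd2, -0.064 or 2.54 for Srebf1 and -0.42 or 1.03 for Mlxipl. The cause was not tested. Of all genes tested 235 were called, 0 with a replicate block (972 at an unadjusted p below 0.05), 0 with a number series block (1523), 47 with a sex block, 0 without control replicate 0 and JunBΔep replicate 0 (846), and 0 to 254 with 1 library left out. The zeros came without control replicate 0, 1 or 2 or JunBΔep replicate 1 (793 to 1090 genes at an unadjusted p below 0.05), and without JunBΔep replicate 0 there were 135, of which 10 were higher. The Prkaa2 call was lost in 12 alternatives and the Cpt1b call in 7, each including every left-out control, the replicate block and the number series block, and Acsl6 was called without JunBΔep replicate 2 (log2 fold change -1.70). Same-numbered libraries did not deviate together (correlations 0.12, -0.23 and -0.43), so the numbers were not taken as pairs; with the replicate block the lowest adjusted p of the 10 genes was 0.817. Read numbers are unknown, so the error of a single value cannot be given.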
